A study of Mus musculus with 4 samples.

Results

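Versican, its link protein and the genes that make, bind and cut their matrix were followed across the endothelial cells (EC) of the mouse aorta. They are 6 genes of the 18767 in the deposited table, taken by name: *Vcan*, *Hapln1*, *Has2*, *Cd44*, *Adamts1* and *Adamts4*. They were chosen by measured values of these data: their levels, the share of cells with each, the detection of *Vcan* and *Hapln1* in the same cells and their change between genotype labels. They were read over the 824 of 991 cells that had more than 1200 genes. Among the 103 cells just above that minimum 1 held *Vcan*, 0 *Hapln1*, 8 *Cd44* and 22 *Adamts1*, and among the 70 just below it 0, 0, 4 and 16 did. The cells came from male C57BL/6J mice aged 1.5 to 3 months, in 4 libraries. The 2 libraries labelled Jag1 ECKO (ECKO-1 and ECKO-2) came from Jag1 fl/fl mice carrying CDH5 Cre-ERT2, a tamoxifen-activated Cre recombinase driven by the promoter of VE-cadherin, and the 2 labelled Jag1 ECWT (ECWT-1 and ECWT-2) from Jag1 fl/fl mice without Cre (*Cdh5* +/+). All mice had 2 mg of tamoxifen per day for 5 days. Aortas from root to iliac artery were digested with collagenases, hyaluronidase, elastase and DNase, and CD31+ CD45- TO-PRO-3- cells were sorted one to a well. The sources used here do not say how many mice gave each library, so the spread between libraries may be partly technical.

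Hyaluronan is a long sugar chain spun out through the plasma membrane by hyaluronan synthases, of which HAS2 is the main vascular one. Versican, the product of *Vcan*, is a large chondroitin sulfate proteoglycan that binds hyaluronan, and the link protein HAPLN1 clamps versican to it. CD44 is the main cell surface receptor for hyaluronan, and ADAMTS1 and ADAMTS4 are secreted proteases that cut versican. This swollen matrix is best known in the developing heart valves and in artery walls under repair, where it loosens tissue and lets cells move.

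*Vcan* and *Hapln1* are neighbours. In the GENCODE M21 annotation of GRCm38, *Hapln1* lies on the plus strand at chr13:89539796-89611652 and *Vcan* on the minus strand at chr13:89655312-89742509, so that their 3′ ends face each other across 43659 bases with no annotated gene between. An antisense gene overlaps the start of *Vcan* but not its 3′ end, where these libraries were primed. *Has2* lies at chr15:56665627-56694539, *Cd44* at chr2:102811141-102901665, *Adamts1* at chr16:85793827-85803113 and *Adamts4* at chr1:171250421-171260637. The RefSeq promoters of *Vcan* and *Hapln1* are shown because the 2 genes were detected in the same few EC, and that of *Adamts1* because it is the member detected in most EC. Each covers 250 bases before the start site and 50 after it, 5′ to 3′ on the gene's own strand. *Vcan* is at chr13:89742463-89742762 (minus strand, GRCm38.p6), *Hapln1* at chr13:89540386-89540685 (plus strand) and *Adamts1* at chr16:85803064-85803363 (minus strand). Capitals mark the matches found by a search of both strands for the Notch effector motif GTGGGAA, the AP-1 motif TGANTCA, the CRE motif TGACGTCA and the TATA box TATAAA, none of which is part of another.
Vcan: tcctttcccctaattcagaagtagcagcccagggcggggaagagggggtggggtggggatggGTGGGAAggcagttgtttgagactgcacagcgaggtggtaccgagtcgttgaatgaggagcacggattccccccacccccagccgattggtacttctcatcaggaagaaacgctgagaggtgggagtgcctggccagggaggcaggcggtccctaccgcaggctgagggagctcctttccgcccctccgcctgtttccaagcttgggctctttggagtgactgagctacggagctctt
Hapln1: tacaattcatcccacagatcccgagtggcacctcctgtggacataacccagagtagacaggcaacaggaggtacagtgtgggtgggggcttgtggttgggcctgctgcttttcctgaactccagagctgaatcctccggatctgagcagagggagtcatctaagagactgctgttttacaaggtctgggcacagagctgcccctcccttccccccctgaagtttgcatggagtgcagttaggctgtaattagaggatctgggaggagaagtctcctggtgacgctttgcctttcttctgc
Adamts1: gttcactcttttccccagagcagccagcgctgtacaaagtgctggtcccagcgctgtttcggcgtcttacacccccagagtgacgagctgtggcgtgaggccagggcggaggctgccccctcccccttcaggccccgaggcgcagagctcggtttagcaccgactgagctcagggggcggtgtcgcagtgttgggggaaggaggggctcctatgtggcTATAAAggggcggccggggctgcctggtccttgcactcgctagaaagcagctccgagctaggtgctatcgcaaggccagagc

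Promoters were matched for 4 of the 6 members, the fourth being *Cd44*. GTGGGAA was found once, in *Vcan*, 188 bases before the start site, and it is in 6.38% of the 32851 promoters of the table. TATAAA was found once, in *Adamts1*, 32 bases before the start site, against 13.6% of all promoters. TGANTCA (7.81% of all) and TGACGTCA (1.79%) were in 0 of the 4. *Hapln1* therefore held none of these 4 motifs in this window, and *Vcan* and *Hapln1* shared none of them. The GC content was 61.0% for *Vcan* with 12 CpG dinucleotides and 54.3% for *Hapln1* with 3, beside a median of 52.7% and 7 over all promoters.

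Counts of each library's cells summed to 1016053 in ECKO-1 (202 cells), 1779042 in ECKO-2 (236), 859280 in ECWT-1 (140) and 1492191 in ECWT-2 (246), and the median cell had 4212 to 6517.5 counts. Of the 824 cells, 794 were EC-like, 17 fibroblast-like and 13 VSMC-like. All 10 EC markers were detected among the EC-like cells. The libraries shared 324 of 373 well barcodes, as plates of one layout do, and no 2 cells held identical values. *Jag1* itself went against the labels: per 1000000 counts of the library (CPM) it stood at 158 and 70.8 in the libraries labelled ECKO and 32.6 and 26.1 in those labelled ECWT, and the deletion could not be checked from these counts, because a 3′ tag need not lie in the deleted part. Directions below are therefore between labels.

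*Adamts1* was the most abundant member. Counts are of 3′ ends, one per molecule, and were compared between genes without scaling to length. *Adamts1* had 115 counts in ECKO-1, 178 in ECKO-2, 95 in ECWT-1 and 146 in ECWT-2, or 113, 100.05, 111 and 97.8 CPM, and was detected in 29.2%, 34.7%, 32.9% and 32.9% of cells. *Cd44* followed with 42, 69, 39 and 38 counts, or 41.3, 38.8, 45.4 and 25.5 CPM, in 14.4%, 19.1%, 19.3% and 10.98% of cells. The 2 labels overlapped for both genes.

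*Vcan* and *Hapln1* were rarer and uneven. *Vcan* had 14, 13, 42 and 28 counts in ECKO-1, ECKO-2, ECWT-1 and ECWT-2, which is 13.8, 7.31, 48.9 and 18.8 CPM, and was detected in 4, 5, 8 and 13 cells (1.98%, 2.12%, 5.71% and 5.28%). *Hapln1* had 4, 8, 21 and 25 counts, or 3.94, 4.50, 24.4 and 16.8 CPM, in 1, 8, 6 and 9 cells (0.495%, 3.39%, 4.29% and 3.66%). Both ECKO libraries stood below both ECWT libraries in CPM of each gene. The same held for 19.4% of the 9730 genes tested, and 16.0% stood the other way. The exact 95% binomial interval of the share with *Vcan* was 0.542% to 4.99% in ECKO-1 and 2.50% to 10.9% in ECWT-1, so the shares were not separated by counting error alone. After each cell was thinned to 2500 counts, the share with *Vcan* was 1.59% and 1.28% in the ECKO libraries and 3.03% and 2.11% in the ECWT libraries. Intervals cover counting error only.

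**Figure D1:**
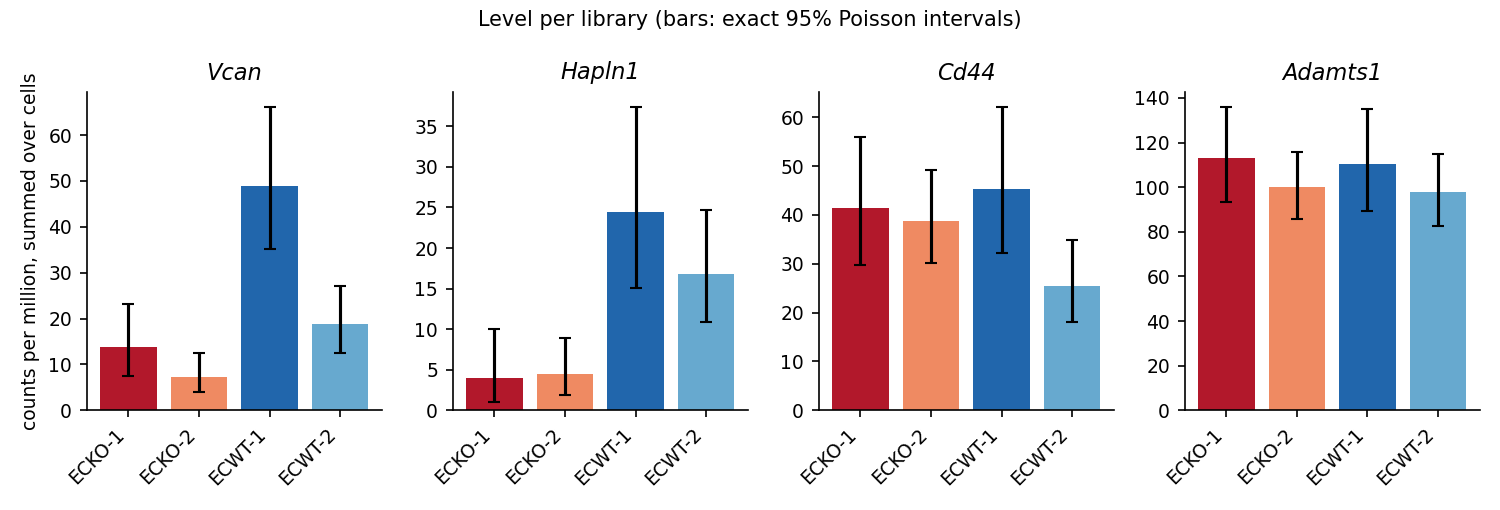
CPM of *Vcan*, *Hapln1*, *Cd44* and *Adamts1*, summed over all cells of each of the 4 libraries, with exact 95% Poisson intervals. *Vcan* and *Hapln1* are lowest in the ECKO libraries, at 7.31 to 13.8 and 3.94 to 4.50 CPM, while *Cd44* and *Adamts1* overlap between labels. Of the 9730 genes tested, 19.4% are lower in both ECKO libraries in this way.

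The synthase *Has2* and the protease *Adamts4* were all but undetected. *Has2* had 1 count in all, in 1 fibroblast-like cell of ECKO-2, and *Adamts4* had 1, in 1 EC-like cell of ECKO-2. For either gene, 0 cells in ECKO-1, ECWT-1 and ECWT-2 allow exact 95% upper bounds of 1.81%, 2.601% and 1.49% of cells respectively. These bound the share of cells with a detected count at this depth, not the share expressing the gene. *Has2as*, listed as a row of its own and antisense to *Has2*, had 1 count, in ECWT-1. *Has2* RNA was not detectable in EC at this depth, where 0 of 794 cells held it (exact 95% upper bound 0.464%).

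The few non-endothelial cells differed from EC in *Vcan* and, for the fibroblast-like cells, in *Cd44*, a description with no test. *Vcan* was detected in 5 of 13 VSMC-like cells (38.5%, 112 CPM) and 3 of 17 fibroblast-like cells (17.6%, 29.9 CPM), against 22 of 794 EC-like cells (2.77%, 15.8 CPM). *Cd44* was detected in 13 of 17 fibroblast-like cells (76.5%, 194 CPM), 2 of 13 VSMC-like cells (15.4%, 34.9 CPM) and 113 of 794 EC (14.2%, 32.2 CPM). Median depth was higher in the fibroblast-like (7661 counts) and VSMC-like cells (7546) than in EC (5245.5), and after thinning the share with *Cd44* was 47.1% in fibroblast-like cells, 0% in VSMC-like cells and 7.87% in EC. *Adamts1* was spread more evenly, at 102 CPM in EC, 112 in fibroblast-like and 139.8 in VSMC-like cells. *Hapln1* was in 21 EC (11.1 CPM), 2 fibroblast-like and 1 VSMC-like cell.

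Within the endothelium, versican and link protein were concentrated in 5 EC. These are all the EC in which both genes were detected, 0.630% of EC, and together they held 60 of the 97 *Vcan* counts (61.9%) and 37 of the 58 *Hapln1* counts (63.8%) of the data. EC 1, from ECKO-1, held 8 *Vcan* and 4 *Hapln1* counts. In ECWT-1, EC 2 held 26 and 6, EC 3 held 9 and 8, and EC 4 held 2 and 3. EC 5, from ECWT-2, held 15 and 16, and ECKO-2 gave none. Outside them, 17 EC had *Vcan*, each at 1 count, and 16 had *Hapln1*, 15 of them at 1 count and the other at 2. The 5 cells had 7612, 4457, 5291, 4207 and 5481 counts in all. Mitochondrial genes took 8.50%, 3.52%, 3.53%, 2.42% and 3.63% of these, against a median of 4.198% in EC with neither gene (5th to 95th percentile 1.895% to 8.09%), so EC 1 was above that range and the others within it.

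With all counts, co-detection ran ahead of the number expected if the genes were independent in each of the 4 libraries. Cells with both numbered 1 in ECKO-1 (0.0198 expected), 1 in ECKO-2 (0.169), 3 in ECWT-1 (0.343) and 1 in ECWT-2 (0.476), the one of ECKO-2 being a VSMC-like cell with 3 *Vcan* and 1 *Hapln1* counts. At 2 or more counts of each gene, 5 cells remained where 0.0850 were expected, and these were the 5 EC. In cells thinned to 2500 counts 4 cells held both where 0.208 were expected, 3 in ECWT-1 and 1 in ECWT-2, with 0 in either ECKO library. These are descriptions, because the genes were chosen with this pattern known. The share of EC with both genes was 0.515% in ECKO-1, 0% in ECKO-2 (where 0 of 224 allows an exact upper bound of 1.63%), 2.19% in ECWT-1 and 0.418% in ECWT-2, with intervals that overlapped.

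**Figure D2:**
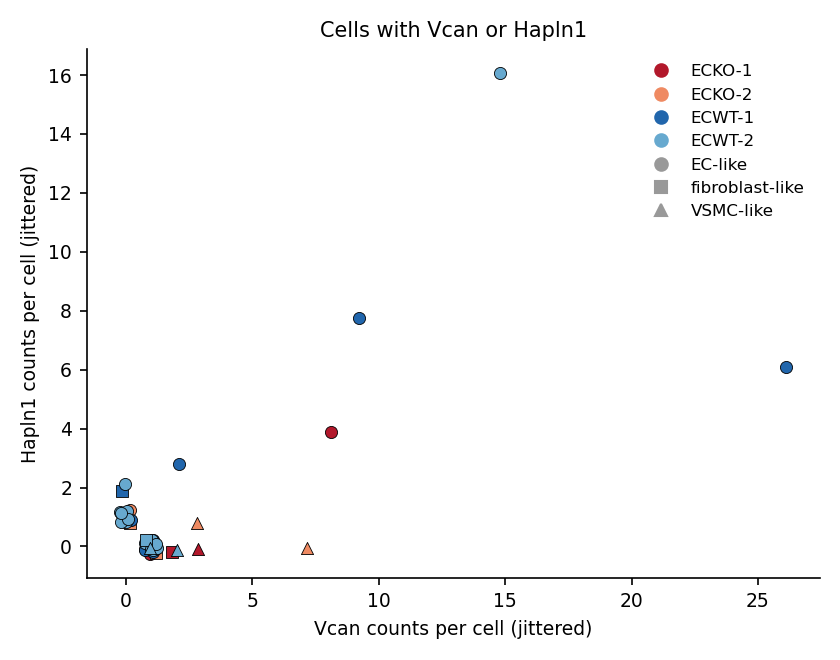
Counts of *Vcan* (x axis) and *Hapln1* (y axis) in each cell with either gene, coloured by library and shaped by cell class, with jitter of under 0.5 counts. The 5 EC with both genes stand away from the axes, from 2 and 3 counts to 26 and 6; every other EC lies at 1 or 0 *Vcan* counts.

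The rest of the transcriptome of these 5 EC differed from that of the 756 EC with neither gene, and none of these other genes was used to choose them. All 5 held *Nog*, which encodes the secreted BMP antagonist noggin, at 7, 4, 28, 4 and 5 counts in EC 1 to EC 5, whereas 6 of the 756 held any and none more than 3. *Nr4a2*, an orphan nuclear receptor that is also on the digestion-response list below, had 6, 7, 4, 5 and 8 counts, against 10 of the 756 cells at 1 count each. *Slc6a6*, the taurine transporter, had 24, 17, 35, 14 and 18 counts, against 7.41% of the other cells and at most 17. No EC outside the 5 held *Nog* and *Nr4a2* together.

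*Net1*, a RhoA exchange factor, had 19, 21, 13, 6 and 13 counts, 22.3-fold above the level in EC with neither gene. *Igf2*, the fetal growth factor, had 29, 45, 3, 3 and 21 counts (18.1-fold). *H19*, the noncoding RNA imprinted beside *Igf2*, was present in EC 1 and EC 2 only, at 8 and 29 counts. *Jag1* was detected in all 5, at 6, 3, 10, 3 and 3 counts, against 24.1% of EC with neither gene (14.1-fold), though it did not pass the test below (adjusted p = 0.0638 by edgeR's quasi-likelihood test). These cells held 16 of the 28 *Jag1* counts of ECWT-1.

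Other genes were sparse in the same 5. *Cytl1*, a small secreted protein, was in 99.2% of EC with neither gene, and the 5 held 15, 4, 0, 1 and 4 counts, 8.61-fold lower (exact 95% counting interval 5.78 to 13.4). *Bgn*, the small proteoglycan biglycan, was in 99.5% of the others and had 5, 0, 1, 2 and 1 counts, 13.7-fold lower (7.23 to 30.02). *Apoe*, apolipoprotein E, had 4, 0, 1, 1 and 2 counts (13.2-fold lower, 6.70 to 30.6).

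The peptide-processing enzyme *Cpe* had 1, 0, 1, 0 and 2 counts, 15.7-fold lower (6.13 to 57.7), and the Wnt modulator *Sfrp1* had 1, 0, 0, 0 and 2 (22.04-fold lower, 7.54 to 107). Low levels of such genes were not limited to the 5: 10 other EC had at most 2 counts of *Cytl1* and at most 2 of *Cpe*. *Bmp4*, a ligand that noggin binds, had 1, 0, 1, 0 and 0 counts where 62.3 would be expected at the level of the other EC, 31.2-fold lower with a wide interval of 8.63 to 257. The invariant chain *Cd74*, the membrane-trafficking gene *Ehd4*, extracellular superoxide dismutase *Sod3*, the protein C receptor *Procr*, the MHC class II gene *H2-Aa* and *Igfbp7* were at 0 in all 5. Set against a floor of 3 counts over the 5 cells, *Cd74* was at least 9.36-fold lower, *Ehd4* at least 8.83-fold, *Sod3* at least 7.53-fold, *Procr* at least 6.27-fold, *H2-Aa* at least 4.88-fold and *Igfbp7* at least 3.25-fold. *Cyr61* had 1 count in the 5, where 15.8 would be expected, and the scavenger receptor *Stab1*, which also binds hyaluronan, had 4, where 15.8 would be expected.

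**Figure D3:**
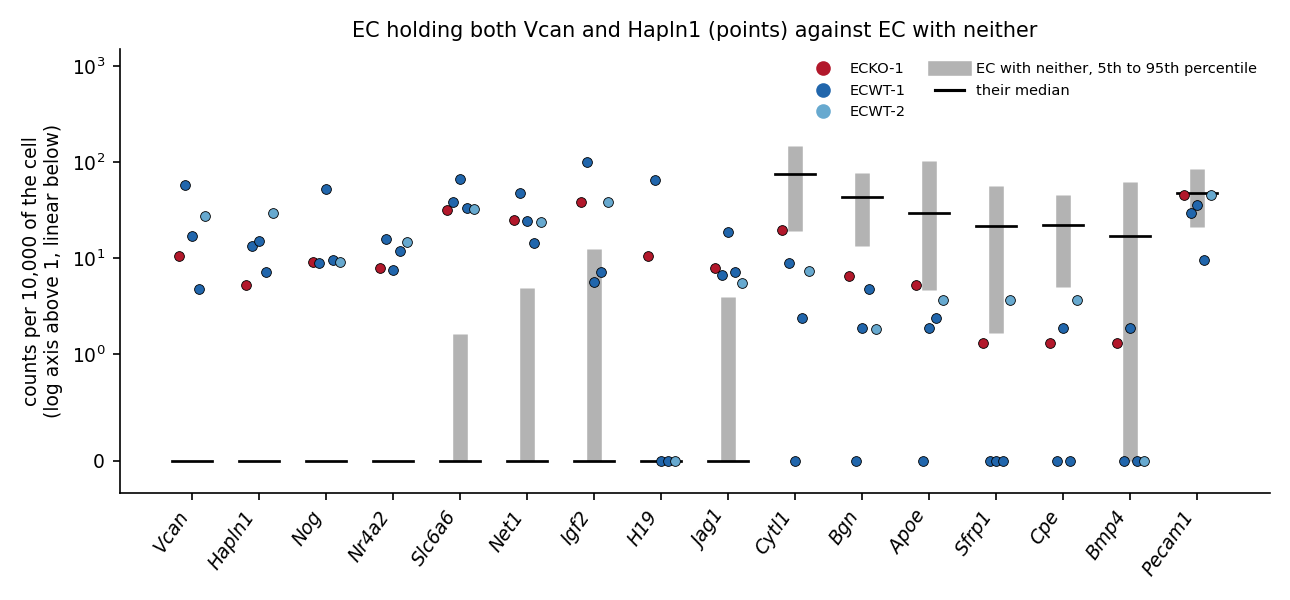
Counts per 10000 counts of the cell in the 5 EC with both *Vcan* and *Hapln1* (points, coloured by library), with the median and the 5th to 95th percentile of the 756 EC with neither gene (black line, grey bar); the axis is logarithmic above 1. *Nog*, *Nr4a2*, *Slc6a6* and *Net1* lie above the grey range in all 5 cells, *Cpe* and *Bgn* below it, and the endothelial marker *Pecam1* within it in 4 of 5.

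Most endothelial markers were detected in the 5 cells, at levels that differed from gene to gene. *Pecam1*, which encodes the CD31 used to sort them, had 35, 13, 19, 4 and 25 counts, and 7, 6, 9, 8 and 8 of the 10 EC markers were detected, against a median of 7 in EC with neither gene. *Tie1*, an endothelial receptor kinase, had 20, 0, 6, 2 and 12 counts and the tight junction gene *Cldn5* 21, 4, 6, 4 and 8, which is 1.75-fold and 4.15-fold above EC with neither. *Vwf*, von Willebrand factor, had 3, 2, 5, 2 and 0 counts, 3.99-fold lower (2.28 to 7.72), and *Kdr* was at 0, where 0.395 would be expected. Their summed EC marker level was 4516 to 11692 CPM, and EC 4, at 4516, was below the 5th percentile of the others (6014). Among the fibroblast markers *Pi16* was in all 5, with 9 counts where 1.297 would be expected (6.94-fold higher), while *Dcn* and *Col1a2* were at 0 where 13.4 and 9.79 would be expected. *Lum*, *Col1a1* and *Pdgfra* were also at 0, where fewer than 1 count each would be expected. Of 8 VSMC markers 5 were at 0: *Acta2* and *Tagln*, where 7.0003 and 2.23 would be expected, and *Cnn1*, *Lmod1* and *Des*. *Smtn* had 3 counts where 1.76 would be expected and *Myh11* 1 where 0.915 would be, while *Mylk* had 1, fewer than expected. All 5 lymphatic and all 5 leukocyte markers in the table were also at 0. For each of these, and for *Cnn1*, *Lmod1* and *Des*, fewer than 1 count would be expected, which cannot be told from their usual level. The summed level of 29 immediate early and heat shock genes, which respond to tissue digestion, was 6203 CPM at the median of the 5 against 3740 in the others, whose 5th to 95th percentile ran from 1507 to 9445. The highest of the 5 stood above that range, at 10206 CPM. Without *Nr4a2* the medians were 4744 and 3735 CPM and the highest of the 5 stood at 9450. The part of these genes in the result was not tested. Among genes of the endocardium and valve-forming mesenchyme, *Tgfb2* had 9 counts in 4 of the 5 cells (11.5-fold above EC with neither) and *Nfatc1* 2, while *Twist1* was at 0 where 5.04 would be expected, and *Bmp6* and *Tgfbr3* where 2.22 and 2.01 would be. *Snai1*, *Snai2*, *Sox9*, *Postn* and *Prox1* were at 0 where fewer than 1 count each would be expected, which cannot be told from their usual level.

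The difference was tested on cells thinned to 2500 counts and summed per library, with the library as a block (edgeR, TMM scaling). Thinning left 4 EC with both genes, in 2 libraries, against 746 with neither, so the fit had 1 residual degree of freedom. Of 7337 genes, 6 passed an adjusted p of 0.05 as higher (0.0818% of genes tested) and 77 as lower (1.05%). Scaling set this split: with RLE scaling 6 passed as higher and 8 as lower, and with library totals alone 12 and 7. In simulated sums TMM scaling made calls where nothing had been changed, library totals made false calls where large changes had been put in, and TMM and RLE scaling then missed those changes. The simulated spread was fixed in advance, not taken from sums of 1 or 3 cells, so the simulation does not vouch for the calls. A gene not called says nothing, and the test is read only for the genes called under all 3 scalings. There were 13, and *Cd74*, *Ehd4*, *Sod3*, *Procr*, *H2-Aa*, *Igfbp7*, *Cyr61* and *Stab1* were not among them, so that their counts above are a description of these 5 cells. Those higher were *Nog*, *Nr4a2*, *H19*, *Slc6a6*, *Igf2* and *Net1*, and the 7 lower included *Cytl1*, *Bgn*, *Apoe*, *Cpe*, *Sfrp1* and *Bmp4*. Of the 13, DESeq2 called 10, leaving out *Nog*, *H19* and *Net1*. The adjusted p of *Slc6a6* was 2.08e-10 with TMM and 6.21e-14 with RLE scaling in edgeR, and that of *Nog* 3.05e-04 and 1.17e-04. The thinned cells with both genes were 3 of ECWT-1 and 1 of ECWT-2, under one label, and EC 1 was not among them. The call of *H19* rests on EC 2 alone, and the other 12 genes had the same direction in both libraries.

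The other members were sparse in these cells. *Adamts1* had 1 count in EC 1 and 1 in EC 3, where 2.77 would be expected over the 5, and *Cd44* was at 0 where 0.843 would be expected, which cannot be told from its usual level. *Has2* and *Adamts4* were at 0. Of the genes next to the pair on chromosome 13, *Edil3* had 1 count in EC 2 and 1 in EC 5, where 0.0239 would be expected over the 5. *Tmem167* had 4 in all, where 1.76 would be expected, and *Xrcc4* and *Atp6ap1l* were at 0, where fewer than 1 each would be. All 5 EC fell in 1 cluster of 94 cells whose 6 leading genes included *Vcan*, *Nog*, *Slc6a6*, *Igf2* and *H19*, although 87 of its cells had no *Vcan*. When the 6 members were left out of the clustering, all 5 again fell together, in a cluster of 22 cells led by *Slc6a6*, *Gpihbp1* and *Igfbp3*. *Vcan* was in 5 of these 22. With the members kept, *Gpihbp1* and *Igfbp3* led a separate cluster of 17 cells with 0 *Vcan* counts, and their levels in the 5 were not read. At a clustering resolution of 0.8 the 5 lay in a cluster of 177 cells, so they did not form a cluster of their own in any setting.

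The EC with 1 gene of the pair lacked most of this profile. Of the 17 with *Vcan* but no *Hapln1*, 0 held *Nog*, *Nr4a2* or *Slc6a6*, and all 17 held *Cytl1*, *Cpe* and *Bgn*. Of the 16 with *Hapln1* but no *Vcan*, 0 held *Nog* or *Nr4a2*, 3 held *Slc6a6*, and all 16 held *Cytl1*, *Cpe* and *Bgn*. *Net1* was in 7 of the 17 and 10 of the 16, *Igf2* in 4 and 7 and *Jag1* in 3 and 7, beside 40.2%, 32.4% and 24.1% of EC with neither gene. These single counts were spread over clusters, with *Vcan* in 3 of 100, 4 of 74 and 3 of 31 cells of the 3 EC clusters that held most of them.

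The difference in *Vcan* and *Hapln1* between labels came mostly from these 5 cells. Over all cells, the log2 fold change of ECKO minus ECWT was -1.65 for *Vcan* (SE 0.53, adjusted p = 0.900, edgeR's quasi-likelihood test on sums per library) and -2.19 for *Hapln1* (SE 0.49, adjusted p = 0.633). Neither passed, and no gene did: 0 of 9730 (0.00%) were called and 465 had an unadjusted p below 0.05, and DESeq2 called 0 with 159 at that unadjusted p. The 2 members were among the 19.4% of genes with both ECKO libraries below both ECWT libraries. *Hapln1* passed the filter on low counts through the ECWT libraries, having 4 and 8 counts in the ECKO libraries. *Vcan* also needed an ECWT library to pass, because ECKO-2, at 7.31 CPM, lay under the filter's cutoff. With the 5 EC left out, an alternative chosen after seeing the data, *Vcan* stood at 5.95 and 7.31 CPM in the ECKO libraries and 5.91 and 8.74 in the ECWT libraries, and its log2 fold change was -0.15 (adjusted p = 0.985). *Hapln1* then stood at 0 and 4.50 against 4.73 and 6.05 CPM, with a log2 fold change of -0.97 (adjusted p = 0.921). Cells left out for holding these genes lower their levels by construction, so these values measure the part of the 5 cells and test nothing.

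**Figure D4:**
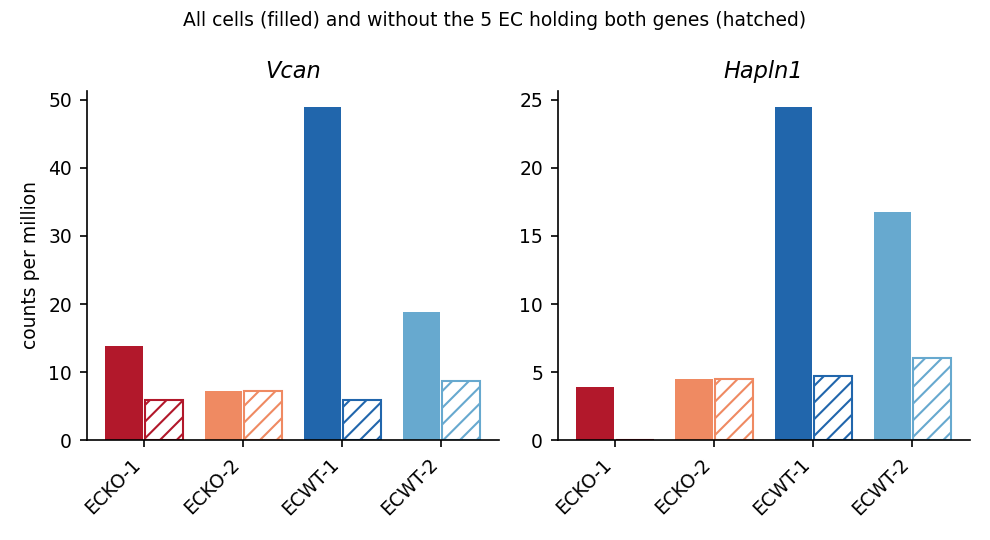
CPM of *Vcan* and *Hapln1* in each library, over all cells (filled bars) and without the 5 EC holding both genes (hatched bars). *Vcan* in ECWT-1 goes from 48.9 to 5.91 CPM and in ECKO-2, which had none of these cells, stays at 7.31.

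Single libraries moved these values as well. Each such fit leaves 1 library under one label, which is assumed to vary like those of the other, and since both genes were chosen for this change a pass is no support for it. Without ECKO-1 both genes passed (adjusted p = 0.00456 for *Vcan* and 0.0478 for *Hapln1*), without ECKO-2 *Hapln1* passed (0.0340) and *Vcan* did not (0.128), and without either ECWT library neither passed. The log2 fold change of *Vcan* ranged from -2.21 to -0.91 over these fits, the smallest without ECWT-1, the library with 3 of the 5 cells. With EC-like cells only it was -2.76 (adjusted p = 0.921). VSMC-like cells, which held *Vcan* at the highest level outside the 5, numbered 6, 2, 0 and 5 in ECKO-1, ECKO-2, ECWT-1 and ECWT-2, and the 8 VSMC markers summed to 3160 and 1488 CPM in the ECKO libraries and 436 and 1177 in the ECWT libraries, with *Cnn1* at 0 in ECWT-1. Log2 fold changes of *Cd44* and *Adamts1* were 0.25 (SE 0.31, adjusted p = 0.935) and 0.05 (SE 0.19, adjusted p = 0.984). *Has2* and *Adamts4* were too low to be tested.

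*Cd44* and *Adamts1* varied between EC clusters instead, in different ways. *Cd44* was highest in cluster 4, whose leading genes included the chemokine *Cxcl1* and the invariant chain *Cd74*: 32 of its 74 cells held it (43.2%, 82.5 CPM). In each library that cluster was above the other EC, with 61.5% against 11.05% in ECKO-1, 40.6% against 11.98% in ECKO-2, 42.9% against 14.6% in ECWT-1 and 33.3% against 8.93% in ECWT-2. Cells of this cluster were deeper (median 8049 counts), and at 2500 counts per cell the shares were 38.5% against 7.74%, 18.8% against 7.37%, 14.3% against 7.83% and 13.3% against 4.19%. *Cd44* was not among the variable genes used for clustering. In cluster 9, led by *Lrg1* and *Fabp4*, 0 of 32 cells held it, which allows up to 10.9% by the exact interval. No test was run between clusters.

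*Adamts1* was detected in every cluster. It was highest in cluster 8 (190.4 CPM), led by *Beta-s* and *Mira*, in cluster 7 (189 CPM), whose leading genes included *Ifit1*, *Pthlh* and *Hbegf*, and in cluster 13 (188 CPM), led by *Gpihbp1* and *Igfbp3*. None of these 3 was above the other EC in every library, whereas cluster 5 (137 CPM), led by *Galnt18* and *Aqp1*, was in CPM, at 195 against 112 in its 3 cells of ECKO-1, 126 against 91.8 in ECKO-2, 190.3 against 102 in ECWT-1 and 109.9 against 99.2 in ECWT-2. By share of cells it was below them in ECWT-2 (29.2% against 33.5%), and at 2500 counts per cell it was above in 2 of 4 libraries. By share of cells cluster 1, led by *Nkx2-3*, was above the other EC in every library (48.1% to 62.9% against 27.5% to 30.1%), but its cells were deeper (median 7663 counts) and at 2500 counts per cell it was above in 2 of 4. Cluster 8 stood at 239 CPM against 97.8 in ECKO-1, which gave 26 of its 39 cells, and at 156 against 99.6 in ECWT-2, but at 102 against 110.5 in ECWT-1 and at 0 in the 4 cells of ECKO-2. Cluster 13 stood at 557 CPM in 4 cells of ECKO-1 and 173 in 1 cell of ECWT-2, but at 70.5 against 112 in ECWT-1 and at 0 in 4 cells of ECKO-2. In cluster 7 it stood at 289.9 CPM against 84.7 in the other EC of ECKO-2, at 253 against 82.3 in ECWT-1 and at 140.4 against 98.2 in ECWT-2, but at 98.5 against 115 in ECKO-1, so the excess held in 3 of 4 libraries. It was lowest in cluster 6 (42.4 CPM, 9 of 61 cells) and cluster 10 (44.1 CPM, 2 of 31 cells). In cluster 12, all 29 cells of which came from ECKO-1 and which was led by the immediate early genes *Nr4a1* and *Junb*, it stood at 148 CPM. The summed level of the immediate early and heat shock list was 6272 CPM in ECKO-1 and 3633 to 4645 in the other libraries; its part in the level of *Adamts1* was not tested.

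**Figure D5:**
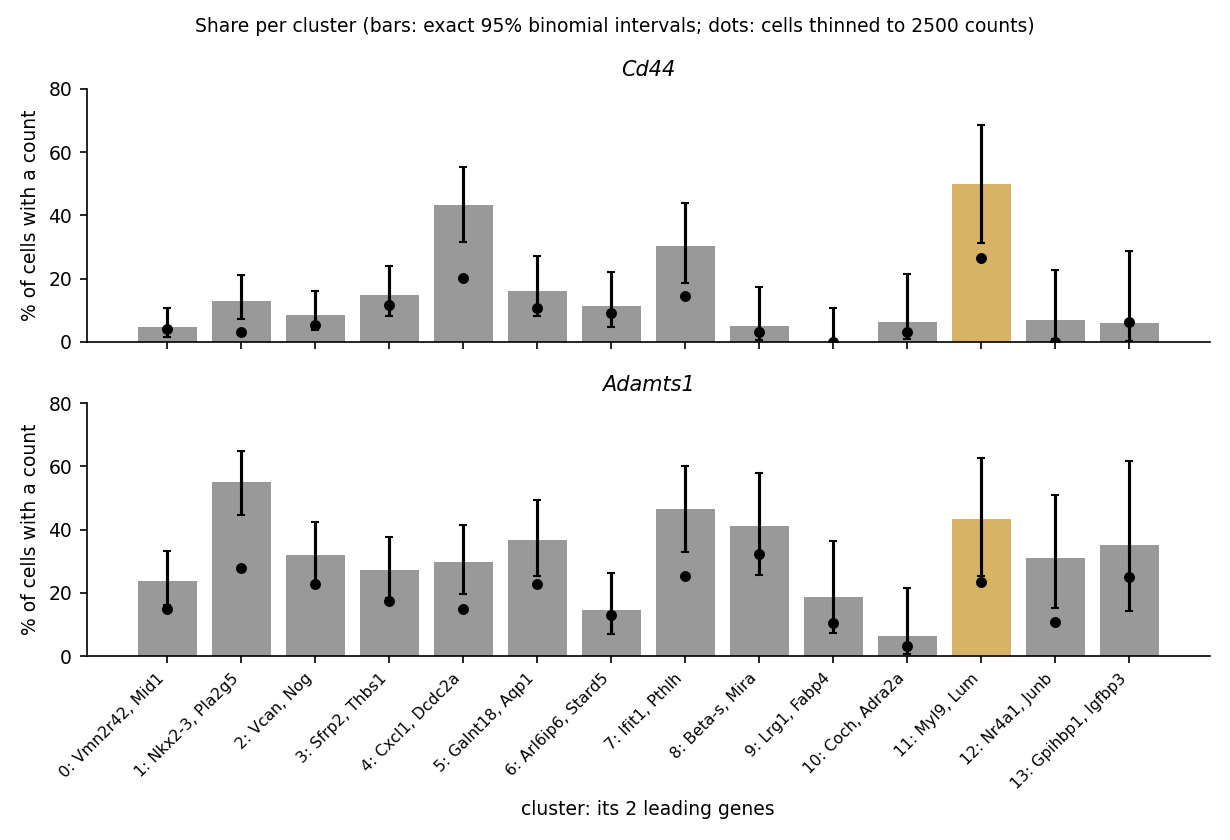
Share of cells with *Cd44* and *Adamts1* in each of 14 clusters, with exact 95% binomial intervals (bars) and the share in cells thinned to 2500 counts (dots); the tan bar is the fibroblast/VSMC-like cluster. *Cd44* reaches 43.2% in cluster 4 and 15 of 30 cells of the fibroblast/VSMC-like cluster, and *Adamts1* runs from 6.45% in cluster 10 to 55 of 100 cells in cluster 1.

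Genes whose levels followed the members from cell to cell were ranked by the mean Spearman correlation within libraries, over 762 EC thinned to 2500 counts and 4830 genes detected in at least 5% of them in every library. For *Vcan* these were *Tgfb2* (0.20), *Jag1* (0.18), *Pls3* (0.17), *Uso1* (0.17) and *Fabp4* (0.17), and for *Hapln1*, over the 3 libraries where it was left, they were *Jag1* (0.23), *Fabp4* (0.21), *Cdk19* (0.21), *Jam2* (0.18) and *Scara3* (0.18). For *Vcan*, *Tgfb2* was above 0 in 2 of 4 libraries, *Jag1* and *Fabp4* in 3 and the other genes in all 4. For *Hapln1*, *Jag1* and *Cdk19* were above 0 in 2 of 3 libraries and the other genes in all 3. Each member was left in 10 of the thinned EC, 4 of which held both, so these values rest on few cells, in part the same ones. *Nog* and *Nr4a2* were too rare to be ranked. For *Cd44* the leading genes were *Coro1b* (0.16), *Scamp3* (0.15) and *Ankrd11* (0.15), and for *Adamts1* they were *Klf4* (0.14), *Ptprb* (0.14) and *Itpr3* (0.14). All are weak and are given with no test.

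The rest of the hyaluronan and proteoglycan machinery was measured in 64 further genes of 70 listed, of which 34 were abundant enough to test between labels. Of these 0 passed, 3 had an unadjusted p below 0.05 as higher and 1 as lower, beside 2.57% and 2.21% of all genes, and their median log2 fold change was -0.01 against -0.0010 over all genes. The synthases were low throughout, with *Has3* at 1.12 to 3.94 CPM. The enzymes that make the sugar precursors were present, with *Ugp2* at 49.2, 73.6, 53.5 and 54.95 CPM in ECKO-1, ECKO-2, ECWT-1 and ECWT-2, *Gfpt1* at 25.5 to 55.1 and *Ugdh*, which makes UDP-glucuronic acid, at 12.8 to 19.4. The 8 genes of hyaluronan breakdown ran from *Spam1*, with 1 count in all, to *Tmem2*. *Tmem2*, a cell surface hyaluronidase, stood at 242, 251, 267 and 216 CPM, the lysosomal hexosaminidase *Hexa* at 162 to 196 and the hyaluronidase *Hyal2* at 105 to 158.

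Among hyaluronan receptors *Stab1* was highest, at 689, 477, 555 and 545 CPM, above *Cd44* in every library. *Lyve1* stood at 13.8 and 38.2 CPM in the ECKO libraries and 9.31 and 12.7 in the ECWT libraries (log2 fold change 1.29, SE 0.54, adjusted p = 0.900), and *Hmmr*, better known for binding the mitotic spindle, at 11.8 and 44.97 against 69.8 and 79.7 (-1.27, SE 0.47, adjusted p = 0.900). The other hyaluronan-binding proteoglycans and link proteins were nearly absent, with *Ncan*, *Bcan* and *Hapln4* at 5.36 CPM or less, and of the 8 genes of this family *Vcan* and *Hapln1* were the 2 abundant enough to test. Of the proteins that bind versican or hyaluronan, fibulin-2 (*Fbln2*) stood at 810.0, 816, 985 and 915 CPM, fibrillin-1 (*Fbn1*) at 84.6, 73.6, 55.9 and 55.6 and *Itih5*, which attaches to hyaluronan, at 13.8, 23.0, 81.5 and 12.7.

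*Timp3*, an inhibitor of ADAMTS proteases, stood at 1629, 1817, 2524 and 1956 CPM, and *Adamts5*, another versicanase, at 36.4, 12.4, 19.8 and 16.8, with *Adamts15* at 4.92 or less. The chondroitin sulfate enzymes, which build the chains that versican carries, were led by *Chst12* (131, 119.7, 155 and 161 CPM), *Chsy1* (48.3 to 68.9) and *Fam20b* (48.9 to 57.1), and 15 of their 21 genes in the table could be tested. Of the chromosome 13 neighbours, *Xrcc4* stood at 11.8 and 10.7 CPM in the ECKO libraries and 17.5 and 18.1 in the ECWT libraries (-0.65, SE 0.39, adjusted p = 0.900), *Tmem167* at 47.2 to 73.05, and *Edil3* and *Atp6ap1l* at 1.69 or less.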

How the data were processed

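CD31+ CD45- cells of mouse aorta were profiled by SORT-seq, a plate method with a 3′ tag and a molecular identifier (UMI) per transcript. The authors aligned reads to GRCm38 with STAR, by the submitters' processing notes, and deposited estimated counts per gene and cell, in which the UMI number is corrected for chance repeats; a counting tool is not given in the sources used here. The estimated counts were rounded, cells with more than 1200 genes were kept and clustered with Seurat 5.3.0 (2000 variable genes, 12 principal components, 14 clusters), and a cluster was named EC-like or fibroblast/VSMC-like from marker lists, split by marker counts per cell. No doublet caller was run. Groups came from the genotype labels, and replicate numbers from accession order. Counts summed per library were tested with edgeR 4.0.16 (filterByExpr, TMM, quasi-likelihood, Benjamini-Hochberg over all genes tested) in R 4.3.3, with DESeq2 1.42.0 as an alternative. The steps were tested on simulated data. Depth was equalized by thinning cells to 2500 counts, which leaves out 32 of 824 cells. CPM is a count per 1000000 summed counts of the library, class or cluster.

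The members, gene lists and tests were chosen with earlier results of these data known. Genes named are the members, *Jag1*, the 3 most abundant other genes of each pathway list and any called, the chromosome 13 neighbours, marker, digestion-response and valve lists, the genes most correlated with a member (5 for *Vcan* and *Hapln1*, 3 for others), and up to 10 called genes per direction with one sign in both libraries for EC with both genes against neither. *H19*, *Cytl1*, *Bgn*, *Apoe*, *Cpe* and *Sfrp1* were named after their values were seen, as genes called under all 3 scalings, as were *Has2as*, *Has3* and the leading genes of clusters. Some genes that the rule or these calls take in are not reported here. Promoters are from RefSeq (GRCm38.p6). Figures were drawn with matplotlib 3.10.9.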

Additional observations from a re-analysis of the deposited data

How the results depend on the processing

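Over 126 alternative values, 88 were rated the same as the main value. Fold changes had to keep their direction and side of the threshold, and shares of all cells to stay within the main interval. No member passed in the main fit, so keeping its side meant not passing again. Numbers of genes or cells and shares per cluster had only to stay within a set ratio of the main value, which is no test. Without a filter on low counts, 127 genes passed between labels, with *Vcan* (log2 fold change -1.64, adjusted p = 0.0165) and *Hapln1* (-2.18, adjusted p = 0.0203) among them. Leaving out each library in turn gave 0 to 417 such genes, log2 fold changes of -2.21 to -0.91 for *Vcan*, -2.42 to -1.97 for *Hapln1*, -0.12 to 0.63 for *Cd44* and 0.0049 to 0.098 for *Adamts1*, and 3 to 5 cells with both *Vcan* and *Hapln1*. *Adamts1* changed sign with EC-like cells only (-0.0038) and with thinned cells (-0.078), where *Vcan* and *Hapln1* were too low to test. Genes called between EC with both genes and with neither numbered 83 as described, 239 in cells thinned to 4000 counts (17 higher, 222 lower), 18 for *Vcan* detected against not detected, 410 by DESeq2 (10 higher, 400 lower), 14 with RLE scaling, 40 without a filter and 397 with no library block; the added settings gave 275 with all counts, 19 with library totals and 85 with both (49 higher, 36 lower). Leaving out an ECKO library gave 73 to 79, and without ECWT-1 or ECWT-2 no test could be fitted. At 2 or more counts the shares of all cells were 1.21% for *Vcan*, 0.850% for *Hapln1*, 4.73% for *Cd44*, 13.96% for *Adamts1* and 0% for *Has2* and *Adamts4*, and in thinned cells 1.89%, 1.39%, 8.59%, 19.4% and 0%; *Has2* was at 0% in EC. Of the 5 genes most like *Vcan*, 2 stayed with Pearson correlation and 0 with all counts, of those for *Hapln1* 2 and 1, and of the 3 for *Cd44* and for *Adamts1* 2 and 0. The cluster of the 5 EC had *Vcan* in 22.7% of cells when clustered without the members, against 7.45%. No paired analysis was possible because replicate numbers came from accession order and pair no samples. Causes of these shifts were not tested. The 5 EC set most of the *Vcan* and *Hapln1* values, and the test of the thinned EC with both genes has 1 residual degree of freedom.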
